A study of Mus musculus with 4 samples.

Results

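The transcripts described here are those of 10 apolipoprotein genes of the mouse, Apoa1, Apoa2, Apoa4, Apob, Apoc1, Apoc2, Apoc3, Apoe, Apoh and Apom, found by symbol among 49997 annotated genes. They were chosen by name, and selected on their levels in CCCP against untreated libraries, to set 9 genes made mainly by liver and yolk sac beside Apoe, which many cell types make. The difference between treated and untreated explants is therefore given for these 10 genes as a description, with no test. The RNA came from cultured AGM, the aorta-gonad-mesonephros region, the site in the mouse embryo where blood stem cells arise. All explants were C57BL/6J, were kept on a membrane filter at the boundary of air and MyeloCult medium with hydrocortisone for 48 hours, and received either no further agent (2 libraries, untreated) or 5 µM CCCP during those 48 hours (2 libraries). CCCP is a protonophore, which lets protons leak across the inner mitochondrial membrane. The growth protocol names embryos of E10.5 and E11.5 and the series design E10.5 alone, and no label says how many embryos went into a library. The cell type is labelled as embryonic stem cells of the blood and the series design speaks of c-kit+ cells, a gate that would remove most liver, macrophage, glial and mesenchymal cells, whereas the extraction protocol speaks of RNA of explants and no source used here describes a sort of these libraries.

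Apolipoproteins are the protein coat of the particles that carry lipid through blood and tissue fluid. Apob is the large, non-exchangeable scaffold of the particles that liver, yolk sac and gut secrete, Apoa1 and Apoa2 are the main proteins of high-density lipoprotein, and the small C-type proteins and Apoe move between particles and steer lipases and receptors. In the embryo the visceral endoderm of the yolk sac and the liver bud are the main sources of most of them. Apoe is also made by macrophages, glia and other cells.

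Start-site sequences from RefSeq (GRCm38.p6, the build called mm10 in the files) were matched by symbol for 8 of the 10 genes, Apoc1 and Apoc3 having no entry in the table used. Each covers 250 bases before and 50 bases after the start. The first entry listed was taken for Apoa2 and Apoe, which have several. For both it lies inside the annotated span of the gene, not at its upstream edge. These spans are chr1:171221564-171226379 for Apoa2 and chr7:19696244-19701310 for Apoe. The 5 shown are those of Apoe and of the 4 most counted liver and yolk sac type genes. The ranking is by mean untreated count scaled to library size, not corrected for exon length. The 5 sequences can thus be read beside the values of those transcripts. They lie at chr12:7977427-7977726 (Apob, + strand), chr9:46228380-46228679 (Apoa1, +), chr1:171224804-171225103 (Apoa2, +), chr11:108395047-108395346 (Apoh, +) and chr7:19699139-19699438 (Apoe, - strand), and are written 5′ to 3′ along the gene. Capitals mark matches, on either strand, to the letters TATAAA (letters of the TATA box), GTTAAT (one arm of the HNF1 palindrome), GGNCAAAG (HNF4 site), TGTTTNC (FOXA site) and TTNCNNAA (C/EBP site), and in Apoh a FOXA and a C/EBP match overlap.
Apob: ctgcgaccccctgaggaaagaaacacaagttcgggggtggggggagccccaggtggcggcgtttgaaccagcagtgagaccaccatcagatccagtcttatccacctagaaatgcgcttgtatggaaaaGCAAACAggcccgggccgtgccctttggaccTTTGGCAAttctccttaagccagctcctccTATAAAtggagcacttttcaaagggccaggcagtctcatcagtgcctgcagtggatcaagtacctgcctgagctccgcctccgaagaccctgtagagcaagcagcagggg
Apoa1: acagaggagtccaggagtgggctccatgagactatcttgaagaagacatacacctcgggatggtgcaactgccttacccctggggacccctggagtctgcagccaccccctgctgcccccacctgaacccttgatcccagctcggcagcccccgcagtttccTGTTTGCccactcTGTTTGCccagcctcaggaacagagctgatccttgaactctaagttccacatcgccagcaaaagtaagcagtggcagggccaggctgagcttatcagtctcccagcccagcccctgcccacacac
Apoa2: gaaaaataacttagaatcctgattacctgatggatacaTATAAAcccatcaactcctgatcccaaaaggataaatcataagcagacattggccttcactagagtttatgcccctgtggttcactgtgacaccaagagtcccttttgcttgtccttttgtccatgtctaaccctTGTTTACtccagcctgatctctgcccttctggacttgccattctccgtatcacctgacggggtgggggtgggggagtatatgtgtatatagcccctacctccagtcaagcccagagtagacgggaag
Apoh: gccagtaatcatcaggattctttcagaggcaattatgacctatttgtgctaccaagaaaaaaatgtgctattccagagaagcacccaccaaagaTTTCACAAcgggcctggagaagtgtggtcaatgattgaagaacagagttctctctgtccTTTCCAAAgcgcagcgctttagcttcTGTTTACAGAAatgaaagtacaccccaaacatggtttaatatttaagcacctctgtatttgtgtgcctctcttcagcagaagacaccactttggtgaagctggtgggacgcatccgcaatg
Apoe: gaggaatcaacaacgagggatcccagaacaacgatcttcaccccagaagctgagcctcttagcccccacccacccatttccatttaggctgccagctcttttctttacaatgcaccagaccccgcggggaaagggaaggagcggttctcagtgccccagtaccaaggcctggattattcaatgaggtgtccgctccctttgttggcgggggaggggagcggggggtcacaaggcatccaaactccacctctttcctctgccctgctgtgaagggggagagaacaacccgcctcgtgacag

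The FOXA letters were found in 5 of the 8 sequences (Apoa1, Apoa2, Apob, Apoh and Apom), against 20.5% of 27025 promoters of the same length, 1 per symbol. Apoa1 held them 2 times. The C/EBP letters were found in Apob and Apoh (40.7% of all promoters), TATAAA in Apoa2 and Apob (14.2%) and the HNF1 letters in Apoc2 alone (7.20%). None of the 8 held GGNCAAAG, which stands in 5.51% of all promoters. The Apoe sequence held none of the 5 motifs. These matches are letters in a window and were not tested as sites.

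The libraries held between 37360968 and 48827826 counted reads, with TMM library factors between 0.966 and 1.04. A count of 3, used as the floor, is 0.0599 to 0.0827 CPM (the count scaled by library size with TMM factors). Of the 10 genes, 7 passed the filter on low counts, and so did 19837 of all genes. In edgeR's quasi-likelihood test over all 19837 genes with Benjamini-Hochberg adjustment, 0 genes (0%) passed an adjusted p-value of 0.05. At an unadjusted p under 0.05 the count was 2899 (14.6%), and DESeq2 called 594 (3.32%). Transcripts of stem and progenitor cells were present at modest or low levels. Kit, the stem cell factor receptor (47.6 to 63.2 CPM), and Mecom (44.1 to 58.9) were the 2 most abundant of 9 genes listed for these cells. The others ranged from 0.107 CPM (Gfi1, untreated replicate 2) to 32.5 CPM (Itga2b, untreated replicate 1). Mesenchymal Col1a1 was far higher (550.3 to 887 CPM), which goes against libraries of stem cells alone. In bulk RNA, fewer cells of a type and less RNA per cell cannot be told apart.

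Apob (chromosome 12, 7977629 to 8016839) was the most counted of the 9 liver and yolk sac type genes in both untreated libraries and in CCCP replicate 2, but not in CCCP replicate 1. It stood at 83.1 and 40.3 CPM in untreated replicates 1 and 2, and at 0.206 and 3.28 CPM in CCCP replicates 1 and 2. Both CCCP libraries were lower than both untreated libraries, and they were 15.9-fold apart from each other, on 10 and 119 counts. The group means were 61.7 ± 30.3 and 1.74 ± 2.17 CPM (SD, n = 2), which is 35.4-fold lower with CCCP, or -5.22 as a log2 fold change. That log2 fold change became -8.21 when CCCP replicate 2 was left out, -4.23 when CCCP replicate 1 was, and -4.58 when untreated replicate 1 was.

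The high-density lipoprotein genes had the same order of libraries. Apoa1 (chromosome 9, 46228630 to 46230469), the protein that accepts cholesterol from cells, stood at 33.8 and 22.1 CPM in untreated replicates 1 and 2 and at 0.330 and 2.48 CPM in CCCP replicates 1 and 2. Apoa2 (chromosome 1, 171221564 to 171226379), its partner on the particle, stood at 21.4 and 14.2 CPM untreated and at 0.350 and 1.24 CPM with CCCP. For each gene the untreated libraries were the higher ones, with replicate 1 above replicate 2, and the CCCP libraries the lower ones, with replicate 2 above replicate 1. The mean of Apoa1 was 28.0 ± 8.29 CPM untreated and 1.41 ± 1.52 CPM with CCCP (SD, n = 2), 19.9-fold lower. That of Apoa2 was 17.8 ± 5.04 and 0.795 ± 0.629 CPM (SD, n = 2), 22.4-fold lower. The log2 fold changes were -4.36 and -4.52, and they were -6.40 and -5.66 without CCCP replicate 2 and -3.49 and -3.84 without CCCP replicate 1. Apoa2 shares 143 of its 936 exon bases with Tomm40l on the other strand, where reads were not counted.

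Apoa4 (chromosome 9, 46240844 to 46243458), an apolipoprotein of the intestine and liver, went with no group. Untreated replicates 1 and 2 had 0 and 47 counts and both CCCP replicates had 2, so untreated replicate 2 alone held more than the floor, at 1.26 CPM. The groups overlapped and no fold is given.

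Apoh (chromosome 11, 108395297 to 108414396), beta-2-glycoprotein 1, a plasma protein that binds anionic phospholipid, had 553 and 117 counts untreated, or 11.05 and 3.13 CPM. It had 0 and 18 counts in CCCP replicates 1 and 2, that is up to 0.0618 CPM allowed by the 0 and 0.496 CPM. The means were 7.09 ± 5.60 and 0.248 ± 0.351 CPM (SD, n = 2). The ratio of these means was 28.6. The ratio of summed counts, scaled by library size, was 36.1, with a 95% exact interval for counting error of 22.7 to 61.3. The log2 fold change was -4.94, and single libraries moved it more than for any other of the 10 genes. It was -3.83 without CCCP replicate 1, -3.73 without untreated replicate 1 and -5.57 without untreated replicate 2. Without CCCP replicate 2 it was -11.33, which rests on a count of 0 and is no bound.

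Apom (chromosome 17, 35128997 to 35131801), the lipoprotein carrier of sphingosine 1-phosphate, stood at 5.21 and 4.68 CPM untreated and at 0.433 and 0.276 CPM with CCCP. Its means were 4.95 ± 0.378 and 0.354 ± 0.111 CPM (SD, n = 2), 14.0-fold lower with CCCP, with a log2 fold change of -3.78. Of the 6 genes of the liver and yolk sac type that passed the filter, Apom was the only one in which CCCP replicate 1 was above CCCP replicate 2, on 21 and 10 counts. The annotation places Apom on 4 contigs, the chromosome and 3 alternate ones, and reads that fit several places were not counted, so its level is uncertain.

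Apoc1 (chromosome 7, 19689480 to 19692659), an inhibitor of lipoprotein uptake and lipase action, differed least among the 6 genes of the liver and yolk sac type that passed the filter. It stood at 2.70 and 2.11 CPM untreated and at 1.22 and 1.30 CPM with CCCP. The groups did not overlap, with means of 2.40 ± 0.413 and 1.26 ± 0.0566 CPM (SD, n = 2), 1.92-fold lower with CCCP (log2 fold change -0.94). With the trend of fold change on exon length removed, the log2 fold change of Apoc1, whose exons cover 554 bases, was -1.20.

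Apoc2 and Apoc3, the activator and an inhibitor of lipoprotein lipase, could not be followed. Apoc3 (chromosome 9, 46233050 to 46235636) had 2 counts in untreated replicate 2 and 0 in the other libraries. Apoc2 (chromosome 7, 19671579 to 19677941) had 7 counts in untreated replicate 1 and 0 in the other libraries. The predicted gene Gm44805, on the same strand, covers 488 of the 813 exon bases of Apoc2 (60.0%), and it shares exon bases with Apoc4 too. Reads that touch both Gm44805 and Apoc2 were not counted, so the level of Apoc2 is uncertain. In both genes the groups overlapped, and no fold is given.

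Apoe (chromosome 7, 19696244 to 19701310), the ligand of low-density lipoprotein receptors, stood at 451 and 300.2 CPM in the untreated libraries and at 379 and 377 CPM in the CCCP libraries. The CCCP libraries lay between the untreated ones. The means were 376 ± 107 and 378 ± 1.43 CPM (SD, n = 2), and the log2 fold change was 0.01. Its sign was not stable. It was -0.05 without library scaling, -0.03 with the length trend removed, -0.24 without untreated replicate 2 and 0.34 without untreated replicate 1.

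**Figure D1:**
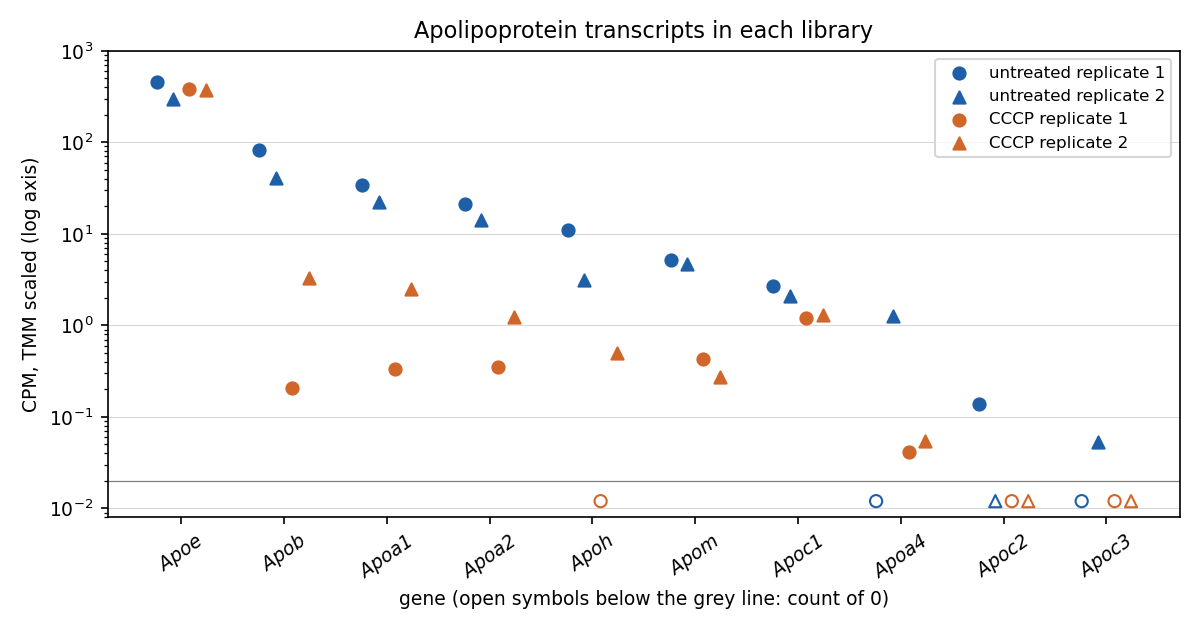
TMM-scaled CPM on a log axis for the 10 apolipoprotein genes, ordered by mean level, with blue symbols for untreated and orange for CCCP libraries (circles replicate 1, triangles replicate 2, open symbols below the grey line a count of 0). Apob, Apoa1, Apoa2 and Apoh separate by group and are spread between the CCCP libraries, Apom and Apoc1 separate with less spread between them, and Apoe stays near 300.2 to 451 CPM.

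Of the 6 liver and yolk sac type genes that passed the filter, both CCCP libraries lay below both untreated libraries in all 6, where 24.8% of all genes tested did so. These genes were picked on this contrast, so the count carries no weight. The median of their log2 fold changes was -4.44, against -0.01 over all genes tested, and it was -6.03 without CCCP replicate 2 and -3.84 without CCCP replicate 1. It covers the 6 genes alone, since Apoa4, Apoc2 and Apoc3 gave no fold.

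Per kilobase of annotated exon, Apoe was the most abundant of the 10 in every library, at 134.8 and 89.6 CPM per kilobase untreated and 113.2 and 112.6 with CCCP. Apoa1 came next in the untreated libraries, at 34.3 and 22.4 CPM per kilobase, then Apoa2, at 22.8 and 15.2. Apob, the longest with 13957 exon bases, stood at 5.96 and 2.89 CPM per kilobase, a range that overlaps those of Apoc1 (4.87 and 3.81) and Apoh (9.30 and 2.63). Both untreated values of Apom (6.82 and 6.12 CPM per kilobase) lay above those of Apob and Apoc1 and within the range of Apoh. The ranges of Apoa1 and Apoa2 overlapped. With CCCP, Apoc1 (2.19 and 2.34 CPM per kilobase) came next after Apoe by mean, then Apoa1 (0.334 and 2.51). The order differed between the CCCP libraries, Apoc1 following Apoe in replicate 1 and Apoa1 in replicate 2.

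Apoe took 74.1% of all reads of the 10 genes in untreated replicate 1 (Wilson 95% interval 73.6% to 74.6%) and 77.3% in untreated replicate 2 (76.7% to 78.0%). In CCCP replicates 1 and 2 it took 99.3% (99.2% to 99.4%) and 97.6% (97.4% to 97.9%). The other 9 genes together held 157 and 87.9 CPM untreated and 2.58 and 9.12 CPM with CCCP. Corrected for exon length, the share of Apoe was 61.6% and 62.5% untreated and 97.0% and 94.0% with CCCP. The intervals cover counting error only.

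The spread between replicates differed among the genes. Between the untreated libraries Apoe, Apoa1 and Apoa2 were 1.50-fold, 1.53-fold and 1.50-fold higher in replicate 1, Apob was 2.06-fold and Apoh 3.53-fold higher, and Apom 1.11-fold. The median gene differed by 0.28 on the log2 scale between the untreated libraries and by 0.21 between the CCCP libraries. Between the CCCP libraries the log2 difference was 3.72 for Apob, 3.55 for Apoh, 2.75 for Apoa1 and 1.70 for Apoa2. Of all genes tested, 99.9%, 99.8%, 99.2% and 96.7% differed less than these 4 genes did. Apoe differed by 0.0077 and Apoc1 by 0.089 between the same CCCP libraries. The CCCP means of Apob, Apoa1, Apoa2 and Apoh are thus means of unlike libraries.

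Alpha-fetoprotein (Afp), a plasma protein of yolk sac and fetal liver, served as a common scale within each library, since it does not depend on library size. Afp had 43027 and 21594 counts untreated and 82 and 1627 counts with CCCP. Apoa2 had 2.48 and 2.46 reads per 100 Afp reads in the untreated libraries and 2.77 in CCCP replicate 2 (95% exact counting interval 2.01 to 3.72). In CCCP replicate 1 it had 20.7 (11.52 to 35.3). Apob had 9.67 and 6.98 reads per 100 Afp reads untreated, 12.2 (5.64 to 23.6) in CCCP replicate 1 and 7.31 (6.02 to 8.81) in CCCP replicate 2. The ratio of Apob to Afp in CCCP replicate 2 was thus between those of the untreated libraries.

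Apom had 0.607 and 0.810 reads per 100 Afp reads untreated, 0.615 (0.294 to 1.13) in CCCP replicate 2 and 25.6 (15.1 to 41.8) in CCCP replicate 1. Apoa1 stood at 3.94 and 3.83 untreated, at 5.53 (4.42 to 6.84) in CCCP replicate 2 and at 19.5 (10.7 to 33.6) in CCCP replicate 1. Among the liver and yolk sac type genes that passed the filter, Apoc1 went furthest from Afp. It had 0.314 and 0.366 untreated, 2.89 (2.11 to 3.86) in CCCP replicate 2 and 72.0 (50.6 to 101.8) in CCCP replicate 1. Apoe went further still, with 52.5 and 52.0 untreated, 841 (799 to 886) in CCCP replicate 2 and 22444 (18072 to 28233) in CCCP replicate 1. CCCP replicate 1 was the library with the least Afp. There the ratios of Apoa1, Apoa2, Apom, Apoc1 and Apoe to Afp lay above those of both untreated libraries beyond counting error. In CCCP replicate 2 those of Apoc1, Apoa1 and Apoe did too, and those of Apoa2 and Apom did not.

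With albumin (Alb), the main plasma protein of the liver, as the scale, the ratios gave another picture. Albumin had 18845 and 5652 counts untreated and 8 and 404 counts with CCCP. Apob had 22.1 and 26.7 reads per 100 Alb reads untreated, 29.5 (23.8 to 36.2) in CCCP replicate 2 and 125 (44.4 to 364) in CCCP replicate 1. Apoa1 had 8.99 and 14.6 untreated, 22.3 (17.5 to 28.1) in CCCP replicate 2 and a ratio with an interval of 80.8 to 540 in CCCP replicate 1, where it had 16 counts. On this scale Apob too stood above the untreated libraries in CCCP replicate 1, where the ratios rest on 8 Alb reads, so that the order of the libraries depends on the gene used as the scale.

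**Figure D2:**
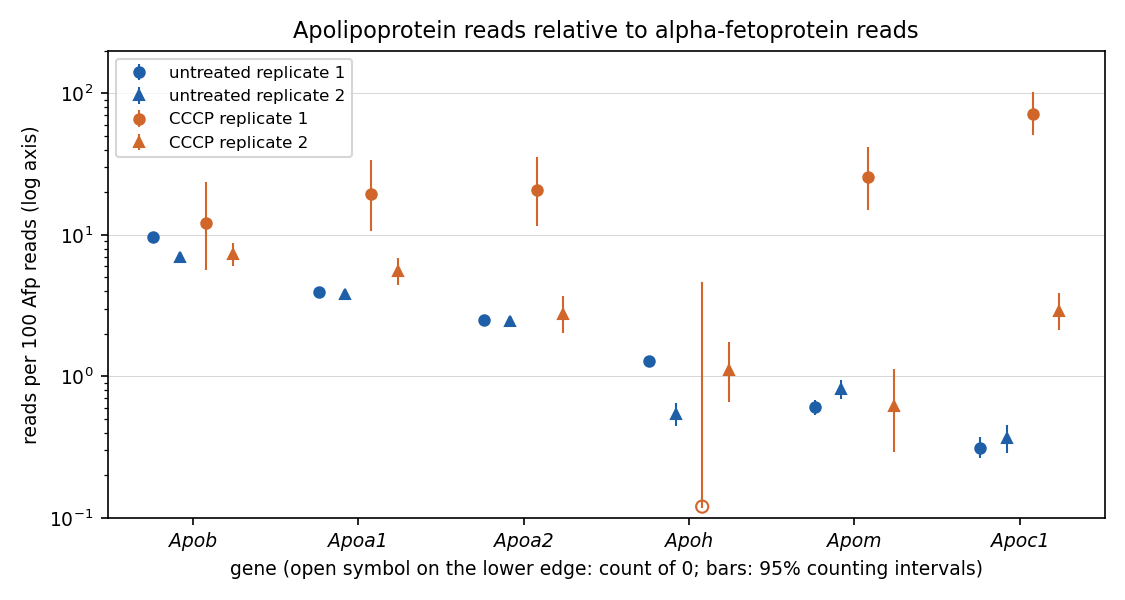
Reads of 6 apolipoprotein genes per 100 Afp reads on a log axis in each library, with 95% exact intervals for counting error (colours for groups, symbols for replicates, the open symbol a count of 0). CCCP replicate 2 lies near the untreated libraries for Apob, Apoa2, Apoh and Apom, and CCCP replicate 1 lies above them for Apoa1, Apoa2, Apom and Apoc1.

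Among the 10 genes, 6 sit in clusters. Along chromosome 9 the order is Sik3, the pseudogene Pou5f1-rs9 within it, Apoa1, Apoc3, Apoa4, Apoa5 and Zpr1. The flanking genes differed little in size between the groups, Sik3 at 75.0 to 77.3 CPM (log2 fold change -0.01, edgeR adjusted p-value 0.971) and Zpr1 at 38.5 to 52.5 CPM (0.23, adjusted p-value 0.483 in edgeR), with both CCCP libraries of Zpr1 above both untreated ones. Apoa5, a regulator of plasma triglyceride, had 2 counts in 1 library.

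Along chromosome 7 the order is Relb, Clptm1, Apoc2, Apoc4, Apoc1, Apoe, Tomm40 and Nectin2. Apoc4 had 9, 3, 2 and 0 counts in untreated replicates 1 and 2 and CCCP replicates 1 and 2, and 30.1% of its exon bases are shared with Gm44805. Tomm40, which encodes the mitochondrial import pore, ends on the same strand next to the upstream edge of the annotated span of Apoe. It stood at 53.4 and 71.0 CPM untreated and at 76.7 and 86.1 CPM with CCCP (log2 fold change 0.39, edgeR adjusted p-value 0.352). Relb, Clptm1 and Nectin2 had log2 fold changes of 0.21, 0.30 and 0.35, with edgeR adjusted p-values of 0.664, 0.335 and 0.342. None of the 6 expressed flanking genes passed the edgeR test, but neither did any of the 19837 genes, so this does not show them unchanged. In Zpr1, Relb, Clptm1, Tomm40 and Nectin2 both CCCP libraries lay above both untreated ones, against 24.0% of all genes tested. In Sik3 the groups overlapped. The unadjusted edgeR p-values of Clptm1 and Nectin2 were 0.0458 and 0.0488. Within the chromosome 7 cluster Apoc1 and Apoe, neighbours on the same strand, had the values given above, -0.94 and 0.01.

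**Figure D3:**
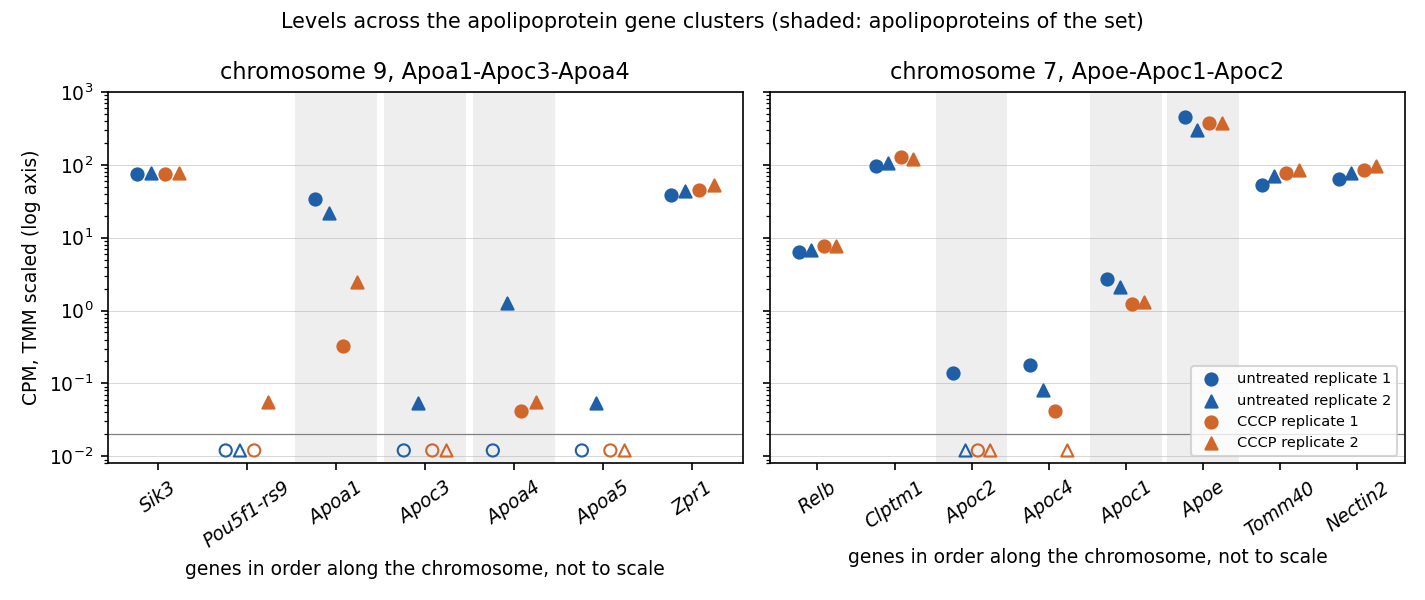
TMM-scaled CPM on a log axis for genes in order along chromosomes 9 (left) and 7 (right), with the 6 clustered apolipoproteins of the set shaded and a count of 0 shown as an open symbol below the grey line. Apoa1 is lower in both CCCP libraries, Sik3 beside it overlaps and Zpr1 is slightly higher, and on chromosome 7 Apoc1 is lower, Apoe overlaps and Relb, Clptm1, Tomm40 and Nectin2 are slightly higher.

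Genes that act with apolipoproteins were read from 6 lists of 92 genes, of which 80 passed the filter. No gene of these lists passed in edgeR, while 3 were higher and 16 lower at an unadjusted p under 0.05 (5.45% and 9.16% of all genes). DESeq2 called 7 of them, 1 higher and 6 lower (0.329% and 2.99% of all genes with an adjusted p-value). Hnf4a, Foxa3, A1cf and Apof were among the lower ones, and the higher one was Surf4. Without the filter edgeR called 1 higher and 13 lower, against 0.673% and 2.76% of all genes (3.43% in all). Of the 80, the 2 groups were apart with CCCP above in 20 and with CCCP below in 28, against 24.0% and 24.8% of all genes. The median log2 fold change was -0.09.

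Among factors known to bind apolipoprotein genes, 0 of 18 passed in edgeR, 5 were lower at an unadjusted p under 0.05 and DESeq2 called 2, both lower. Hnf4a (chromosome 2, 163506811 to 163572907), the nuclear receptor on which liver and yolk sac expression of most apolipoproteins depends, stood at 8.97 and 8.32 CPM untreated and at 2.45 and 1.82 CPM with CCCP. Both CCCP libraries were low, and unlike for Apob the replicates were close to each other. The log2 fold change of Hnf4a was -2.01 with a standard error of 0.271, an adjusted p-value of 0.144 in edgeR and of 4.37e-07 in DESeq2. Foxa3, a forkhead factor of endoderm named after its values were seen, stood at 1.04 and 1.76 CPM untreated and 0.124 and 0.276 CPM with CCCP (adjusted p-value 0.195 in edgeR, 0.0235 in DESeq2). Prox1, a factor of liver bud and lymphatic cells, had means of 50.03 ± 12.3 and 30.7 ± 1.25 CPM (SD, n = 2), with adjusted p-values of 0.23 in edgeR and 0.0528 in DESeq2. Nr2f2 and Nr2f6, orphan receptors that compete for the same kind of site, had log2 fold changes of 0.05 and 0.42, with edgeR adjusted p-values of 0.893 and 0.363.

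Of the 13 genes of lipoprotein assembly and secretion, 0 passed in edgeR, 2 were higher and 2 lower at an unadjusted p under 0.05, and DESeq2 called 1 in each direction. Mttp, the transfer protein that loads lipid onto Apob, did not follow Apob in size. It stood at 14.5 and 13.2 CPM untreated and at 12.3 and 8.22 CPM with CCCP (log2 fold change -0.43, adjusted p-value 0.456 in edgeR). Surf4, the cargo receptor that takes lipoproteins out of the endoplasmic reticulum, had means of 212 ± 11.8 and 297 ± 6.49 CPM (SD, n = 2), with a log2 fold change of 0.49 (standard error 0.119) and adjusted p-values of 0.214 in edgeR and 0.0304 in DESeq2. P4hb, which encodes the other subunit of the Mttp complex and is the most abundant of the list per kilobase, had means of 626 ± 14.4 and 813 ± 11.1 CPM (SD, n = 2) and adjusted p-values of 0.295 in edgeR and 0.112 in DESeq2. A1cf, the cofactor that guides editing of the Apob transcript, was named after its values were seen. It stood at 3.86 and 2.30 CPM untreated and at 0.165 and 0.0551 CPM with CCCP (adjusted p-values 0.144 in edgeR and 1.38e-07 in DESeq2).

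Of the 8 other apolipoproteins and genes named like them that passed the filter, 0 passed in edgeR, and Apof was the 1 gene at an unadjusted p under 0.05 and the 1 called by DESeq2. Apof, an inhibitor of lipid transfer named after its values were seen, stood at 2.24 and 1.15 CPM untreated and at 0.124 and 0.193 CPM with CCCP (adjusted p-values 0.15 in edgeR and 0.00174 in DESeq2). Apool, a protein of the mitochondrial inner membrane in spite of its name, had a log2 fold change of 0.25, and Apold1, an endothelial gene, one of -0.23, with edgeR adjusted p-values of 0.505 and 0.567.

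Of the 15 genes of plasma lipases and lipid transfer, 0 passed in edgeR, 5 were lower at an unadjusted p under 0.05 and DESeq2 called 1. Lipc, the hepatic lipase, and Saa4 had 0 counts in both CCCP libraries. Against a floor of 3 counts in each CCCP library they were at least 9.18-fold and at least 7.38-fold lower, with edgeR adjusted p-values of 0.206 and 0.202. The median log2 fold change of the list was -0.40, also with these 2 genes at their bound. Lipc and Saa4 were named after their values were seen. Pon2, Pon3 and Pltp had log2 fold changes of -0.40, -0.52 and 0.36 with edgeR adjusted p-values of 0.342, 0.325 and 0.476, and 27.4% of the exon bases of Pltp are shared with Ctsa on the other strand. Gpihbp1, the endothelial anchor of lipoprotein lipase and the most abundant of the list per kilobase, had a log2 fold change of 0.22 (adjusted p-value 0.751 in edgeR).

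Of the 16 receptors and uptake genes, 0 passed in edgeR, 2 were lower at an unadjusted p under 0.05, and DESeq2 called 1, as lower. Vldlr and Lrp8, receptors that bind Apoe, had log2 fold changes of -0.41 and -0.37, with edgeR adjusted p-values of 0.24 and 0.417. Lrp1, an Apoe receptor and the most abundant of the list per kilobase, had means of 701 ± 308 and 589 ± 55.8 CPM (SD, n = 2), with an adjusted p-value of 0.712 in edgeR.

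Of the 10 genes of cholesterol efflux and its nuclear receptors, 0 passed in edgeR, 1 was higher and 1 lower at an unadjusted p under 0.05, and DESeq2 called 0. Abca1, the pump that loads cholesterol onto Apoa1 and Apoe, had means of 138 ± 43.5 and 79.4 ± 15.8 CPM (SD, n = 2), that is -0.80 in log2, and adjusted p-values of 0.27 in edgeR and 0.0572 in DESeq2. Npc2, the lysosomal carrier of cholesterol, and Rxrb had log2 fold changes of 0.39 and 0.32 and edgeR adjusted p-values of 0.342 and 0.287. Rxrb, like Apom, is annotated on 4 contigs, so its level is uncertain.

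**Figure D4:**
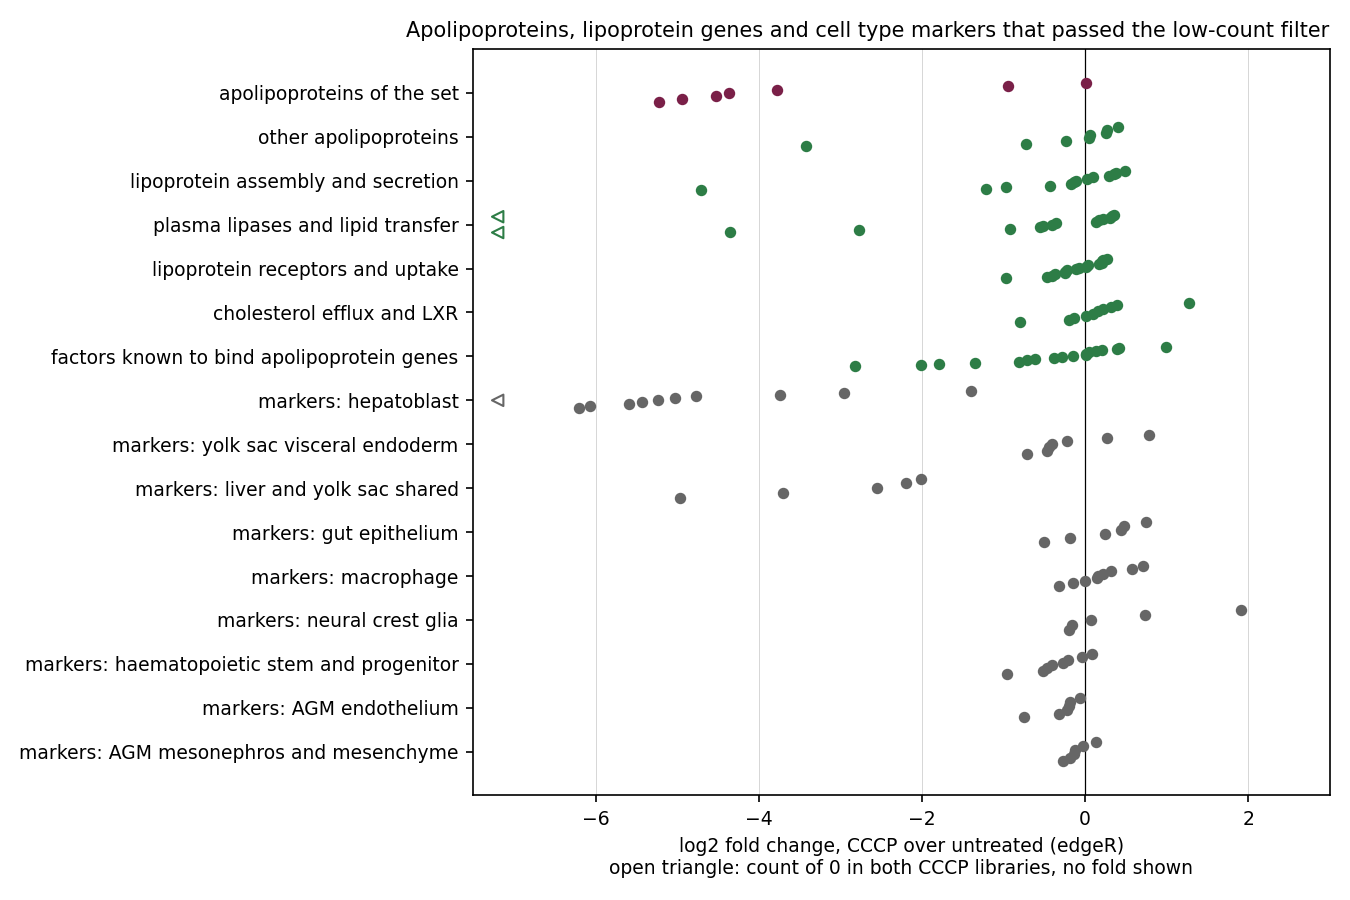
Log2 fold change of CCCP over untreated in edgeR, 1 point per gene that passed the filter, for the apolipoproteins (dark red), lists of lipoprotein genes (green) and lists of cell type markers (grey), with open triangles for genes at a count of 0 in both CCCP libraries, for which no fold is drawn. The hepatoblast markers and the list shared by liver and yolk sac lie at -1.40 or lower, as do 5 of the 7 apolipoproteins shown, while most genes of the other marker lists lie around 0.

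Marker genes of cells that make apolipoproteins were read in the same libraries. All 11 hepatoblast markers that passed the filter, of 12 listed, had both CCCP libraries below both untreated libraries, against 24.8% of all genes tested. The list was chosen with earlier results of these data known. Itih1 and F2 (6 counts in each CCCP library) passed the filter through the untreated libraries alone, so the count carries no weight. The summed level of the 12 listed markers was 678 and 327 CPM untreated and 9.31 and 33.5 CPM with CCCP. CCCP replicate 2 was thus above CCCP replicate 1, as for Apob, Apoa1, Apoa2 and Apoh. Itih1 was at 0 counts in both CCCP libraries and Ahsg and Fga at 0 in CCCP replicate 1. Albumin stood at 376 and 151 CPM untreated and at 0.165 and 11.1 CPM with CCCP, with adjusted p-values of 0.214 in edgeR and 0.12 in DESeq2. Itih2 had means of 48.1 ± 17.3 and 1.32 ± 1.05 CPM (SD, n = 2), with adjusted p-values of 0.133 in edgeR and 2.57e-06 in DESeq2. The median log2 fold change of the hepatoblast list was -5.23, or -5.08 with Itih1 at its bound. At an unadjusted p under 0.05 in edgeR, all 11 were lower, against 9.16% of all genes. After adjustment 0 passed in edgeR, and DESeq2 called 7 as lower, Itih1 and F2 among them, against 2.99% of all genes with an adjusted p-value. For the reasons given above, these counts carry no weight either.

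The 5 genes shared by liver and yolk sac, Afp, Ttr, Trf, Rbp4 and Hnf4a (the last also among the factors), had summed levels of 1178 and 751 CPM untreated and 55.4 and 92.6 CPM with CCCP. All 5 were lower in both CCCP libraries, against 24.8% of all genes tested, in a list also chosen with earlier results known. Afp had adjusted p-values of 0.229 in edgeR and 0.0887 in DESeq2, and Trf, the iron carrier transferrin, of 0.144 and 3.39e-10. Genes listed as markers of yolk sac visceral endoderm were low in every library, and Gkn2 and S100g had 0 counts in some. Which cells made these transcripts was not tested. The summed level of the list was 5.87 and 7.49 CPM untreated and 6.28 and 4.52 CPM with CCCP over 10 genes. Of these, 7 passed the filter, 1 with both CCCP libraries above and 1 with both below the untreated ones. Rhox5 and Slc39a5, the most abundant of them, had edgeR adjusted p-values of 0.496 and 0.745. The gut epithelial list, of which 6 of 8 genes passed the filter, had summed levels of 35.4 and 84.1 CPM untreated and 58.2 and 75.3 CPM with CCCP. Its most abundant genes, Cldn6 and Epcam, had log2 fold changes of 0.44 and 0.24 (edgeR adjusted p-values of 0.624 and 0.643). The hepatic markers and 5 of the liver and yolk sac type apolipoproteins were thus low in the same libraries, and the part of the hepatic cells in the levels of the apolipoproteins was not tested.

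Apoe is made by macrophages, glia and mesenchymal cells among others, and their markers were read beside it. The 9 macrophage markers had summed levels of 269 and 183 CPM untreated and 266 and 266 CPM with CCCP. The CCCP sums lay between the untreated ones, as the level of Apoe did. In 3 of the 9, C1qa, C1qb and C1qc, both CCCP libraries lay above both untreated ones, unlike for Apoe, against 24.0% of all genes. The ratio of untreated replicate 1 to replicate 2 was 1.24 to 1.84 over these 9 genes and 1.50 for Apoe. Of the 9, 2 were higher at an unadjusted p under 0.05 in edgeR (5.45% of all genes), and 0 were called by edgeR or DESeq2. C1qb had a log2 fold change of 0.58 and Csf1r one of -0.01, with edgeR adjusted p-values of 0.264 and 0.993. The list of mesonephros and mesenchyme had untreated ratios of 1.52 to 1.76 over its 6 genes and log2 fold changes of -0.27 to 0.14. Its most abundant genes, Col1a1 and Pdgfra, had edgeR adjusted p-values of 0.728 and 0.632. Neural crest glia markers summed to 208 and 216 CPM untreated and 244 and 222 CPM with CCCP. Fabp7 and Erbb3, the most abundant of them, had edgeR adjusted p-values of 0.796 and 0.835. DESeq2 called 2 of the 5 as higher (0.329% of all genes with an adjusted p-value), among them Sox10 (adjusted p-value 0.0159 in DESeq2 and 0.195 in edgeR). The part of any of these cells in the level of Apoe was not tested.

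The genes whose centred log2 CPM over the 4 libraries lay nearest to the median profile of the 6 liver and yolk sac type genes were Serpina1b, Serpind1, Igfbp1, Serpinc1, Ambp and Serpinf2. Their root mean square differences from it ran from 0.139 to 0.399 on the log2 scale. All 6 encode plasma proteins, Ambp is also among the hepatoblast markers, and Serpina1b has close paralogs whose shared reads were not counted. The values of that profile were 2.66 and 1.88 for untreated replicates 1 and 2, and -3.47 and -1.08 for CCCP replicates 1 and 2. Nearest to the profile of Apoe (0.27 and -0.31 untreated, 0.02 and 0.02 with CCCP) were Ggcx, Dock8, Mdga1, Inf2, Tcp11l2 and the macrophage marker Csf1r, at 0.0143 to 0.0324. With 4 libraries many genes come near any profile, and the likeness is a description of these libraries.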

How the data were processed

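Poly(A) RNA of AGM explants was sequenced in 4 libraries, 2 per group. Per the file headers, the authors counted reads on RefSeq exons of mm10 with featureCounts 2.0.3 and deposited these raw counts for each gene. The header of the file for untreated replicate 1 differs by a letter from the sample's title, and its group was taken from the title. No strand option and no option to count pairs as fragments was set there, so each read of a pair counts singly, and reads that fit several places or genes were not counted. The submitters' processing notes also name FastQC, HISAT2, SAMtools and Subread.

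Counts were tested with edgeR 4.0.16 in R 4.3.3 (glmQLFit, glmQLFTest, two-sided) with TMM scaling, filterByExpr (at least 10 counts, and 15 in total) and no term besides the group, adjusted over all 19837 genes at 0.05. The script was checked on simulated data. A standard error is the log2 fold change over the root of the quasi-likelihood F. Profiles used log2 CPM with a prior count of 2. DESeq2 1.42.0, other scaling, no filter, a length correction, a replicate block and leaving out each library were alternatives. With 2 libraries a group, an exact permutation p cannot go below 0.333, so none is given. No label says that libraries came from separate embryos, so p-values measure the spread between these libraries, which may be technical.

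The genes and lists were chosen with earlier results of these data known. Named by rule were the 10 apolipoproteins; in each lipoprotein list up to 3 genes with no overlap between groups, a mean of at least 5 CPM and the largest change, plus the most abundant per kilobase; the 2 most abundant markers of each list; the 2 genes on each side of a cluster; and the 6 genes nearest to a profile. Some genes that meet these rules are not reported here. Endothelial markers (6 genes, Cdh5 and Pecam1 the most abundant, edgeR adjusted p-values 0.597 and 0.583) summed to 395 to 525 CPM, and haematopoietic markers (9 genes) to 140 to 184 CPM.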

Additional observations from a re-analysis of the deposited data

How the results depend on the processing

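The number of genes past an adjusted p-value of 0.05 was 0 in edgeR, also with RLE size factors, without library scaling and with the length trend removed. It was 1107 without a filter on low counts, 594 in DESeq2, 2118 with the replicate block and 1083 with the replicate block and the length trend removed. Leaving out 1 library gave 1 to 34, with 34 without untreated replicate 2 and 22 without CCCP replicate 2. For the 92 lipoprotein genes the same 4 alternatives gave 14, 7, 18 and 15 in place of 0, and each left-out library 0. For the marker genes they gave 21, 14, 22 and 18 in place of 0, and left-out libraries 0 to 9, with 9 without CCCP replicate 2 and 4 without untreated replicate 2. The cause was not tested.

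The groups share replicate numbers, whose meaning the labels do not give. Deviations of same-numbered libraries had a correlation of 0.36 over 19837 genes. Library sizes also matched by number, with 48216849 and 48827826 counted reads in replicate 1 and 37360968 and 37579087 in replicate 2. Whether same-numbered libraries belong together cannot be told from the labels, so the replicate block is given as an alternative only.

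The median log2 fold change of the 6 liver and yolk sac type genes was -4.44. It ran from -6.03 to -3.84 when 1 library was left out, and stayed below 0 in every alternative. That of Apoe, 0.01, became -0.0542 without library scaling, -0.0333 with the length trend removed and -0.0028 with the replicate block and the length trend removed. Left-out libraries gave -0.24 to 0.34, both from the untreated group. Depth limits Apoa4, Apoc2 and Apoc3, which lay at or near the floor of 3 counts in most libraries. In the CCCP libraries it also limits Apob, Apoa1, Apoa2, Apom and Apoc1, at 10 to 119 counts, and Apoh, at 0 and 18 counts.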
